A study of Mus musculus with 5 samples.

Results

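Mast cells are tissue-resident granulocytes, and the 8 genes described here encode products for which they are known. They are the granule proteases Cma1, Tpsb2, Cpa3 and Mcpt4, the stem cell factor receptor Kit, the IgE receptor subunits Ms4a2 and Fcer1a, and the histamine-forming enzyme Hdc. The genes were taken by symbol from a table of transcript levels with 25873 named genes, and all 8 were found. The set was selected on values of these same libraries, in which Tpsb2 had stood out as higher in the Notch2 knockout, so levels in comparisons with that knockout are described, with no test of the members.

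The libraries came from tdTomato-positive cells sorted from the limb muscle of C57BL/6J mouse fetuses on embryonic day E16.5. All of them carried Pax7-CreER, a tamoxifen-activated recombinase driven from a gene of muscle progenitors, and the Rosa-tdTomato reporter, and all were exposed to oral tamoxifen of the mother (240 mg per kg on 2 days, starting at E12.5). Wild-type (WT) controls had the recombinase and reporter alone (2 libraries), the Notch1 conditional knockout (cKO) also had floxed alleles of its gene (Notch1f/f, 1 library), and the Notch2 cKO likewise (Notch2f/f, 2 libraries). Whether libraries came from separate or pooled fetuses is not stated in the labels, so the spread between them may be technical. Library names join the group with the tag of its column. CD31, CD45 and Ter119 were stained together and the sorted cells are called lineage-negative, taken here to mean without these stains, and CD45 is a surface protein of mast cells and other blood cells.

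Mast cells arise from blood-forming precursors that settle in tissues before birth. Stem cell factor acting on the receptor KIT keeps them alive, and their granules store proteases bound to proteoglycans together with histamine. Chymases and tryptases are serine proteases, carboxypeptidase A3 is a metalloprotease, and signals of the high-affinity receptor for IgE can trigger their release. In muscle they lie in the connective tissue between fibres and are not descendants of Pax7-expressing progenitors.

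Values are RPKM, reads scaled by the length of the gene and by the read total of the library, so they can be compared between genes. The library totals ran from 20740258 to 28827897 reads. As a check of the labels, Notch1 was lowest in Notch1 cKO Em8 (2.33 RPKM) and lay between 7.26 and 13.5 in the rest. Notch2 was between 2.03 and 3.35 in the Notch2 cKO pair and between 2.40 and 4.17 elsewhere. Notch2 cKO Em3 (3.35) was above WT Em2 (2.40), so this value does not check the Notch2 cKO labels. The summed level of 8 myogenic genes, most of it Myog, was 1479.8 RPKM for WT Em2 and 1831 for WT Em4. It was 2152 and 2328 across Notch2 cKO (Em3, Em4) and 1356 for Notch1 cKO Em8. Not all of these genes were high. Pax7 ran from 4.15 RPKM in Notch2 cKO Em4 to 13.4 in Notch1 cKO Em8, and Pax3 from 0.836 in WT Em2 to 1.58 in Notch1 cKO Em8. Notch2 cKO Em3 stood apart at the low end of the scale, with 12.7% of named genes at 0 against 24.5% to 31.7% in the other libraries, and it held the highest value for 67.2% of named genes with a mean under 1 RPKM.

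The 8 genes together were a small signal that differed widely between libraries. Their summed level was 3.69 RPKM for WT Em2 and 9.96 for WT Em4, 13.2 for Notch2 cKO Em3, 33.5 for its partner Notch2 cKO Em4, and 1.39 for Notch1 cKO Em8. Behind these sums were 132, 295, 372, 1252 and 64 reads in the same order. The highest library was therefore Notch2 cKO Em4 and the lowest Notch1 cKO Em8, with both WT libraries between the knockouts. The summed myogenic genes had the same order of libraries over a narrower range. Most of that sum was Myog, which had this order by itself, from 944 RPKM in Notch1 cKO Em8 to 1737 in Notch2 cKO Em4. Of the 8 myogenic genes, 4 were highest in Notch2 cKO Em4, 2 in Notch1 cKO Em8 and 1 in each WT library. The part of the myogenic genes in the result was not tested. In bulk RNA, fewer cells of a type and less RNA per cell cannot be told apart.

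**Figure D1:**
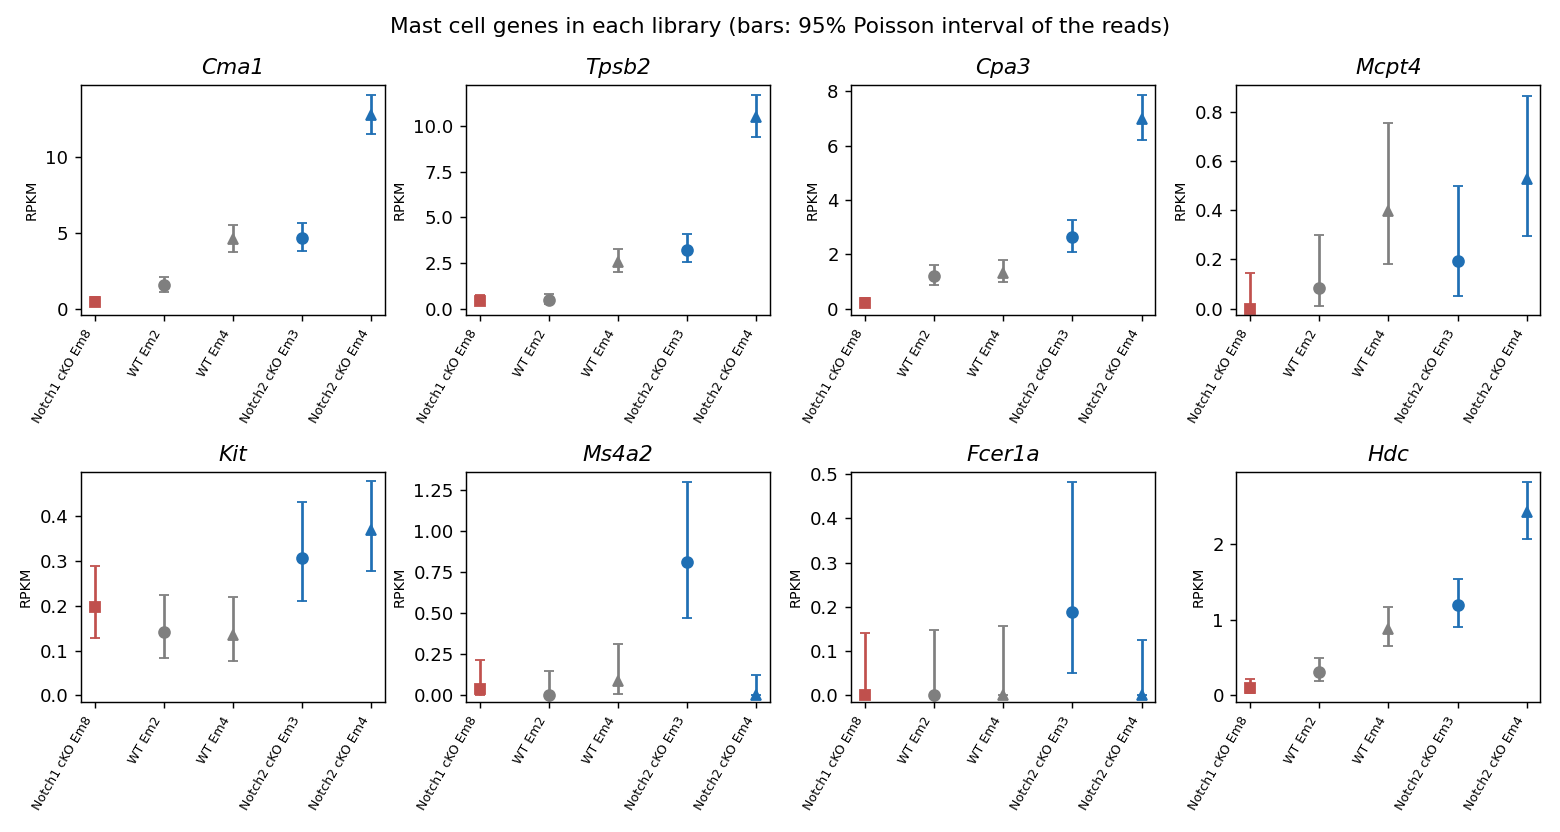
Level of each of the 8 genes (RPKM, vertical axis) in the 5 libraries (horizontal axis), with the exact 95% Poisson interval of its reads, which covers counting error only. Cma1, Tpsb2, Cpa3 and Hdc are lowest in Notch1 cKO Em8 and highest in Notch2 cKO Em4, while Ms4a2 and Fcer1a are highest in Notch2 cKO Em3 and at 0 in Notch2 cKO Em4.

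Cma1 encodes mast cell protease 5, an alpha-chymase by descent, and was the most abundant of the 8 on average, at a mean of 4.77 RPKM. The level was 1.52 RPKM for WT Em2 and 4.55 for WT Em4, 4.62 for Notch2 cKO Em3, 12.7 for its partner Notch2 cKO Em4, and 0.437 for Notch1 cKO Em8. The Notch1 cKO library was the lowest and Notch2 cKO Em4 the highest, but Notch2 cKO Em3 and WT Em4 could not be ordered: their 95% Poisson intervals were 3.77 to 5.60 and 3.75 to 5.48 RPKM. After median-of-ratios scaling, which equalises the libraries over genes seen in all of them, Notch2 cKO Em3 (4.11) was below WT Em4 (4.45).

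Tpsb2 encodes mast cell protease 6, a tryptase stored as a heparin-bound tetramer, and of the proteases it differed most between libraries of the same genotype. It was measured at 0.452 RPKM for WT Em2 and 2.57 for WT Em4, 3.24 for Notch2 cKO Em3, 10.5 for its partner Notch2 cKO Em4, and 0.432 for Notch1 cKO Em8. Notch1 cKO Em8 and WT Em2, with 12 reads each, were alike within counting error. The WT libraries differed from each other 5.70-fold and the Notch2 cKO libraries 3.24-fold, while the ratio of the group means was 4.54.

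Cpa3 encodes carboxypeptidase A3, which trims peptides in the mast cell granule. Its level was 1.18 RPKM for WT Em2 and 1.32 for WT Em4, 2.62 for Notch2 cKO Em3, 6.995 for its partner Notch2 cKO Em4, and 0.189 for Notch1 cKO Em8. Of the proteases it had the closest WT pair, with intervals of 0.853 to 1.60 and 0.963 to 1.78 RPKM. Both lay below the interval of Notch2 cKO Em3 (2.08 to 3.27) and above that of Notch1 cKO Em8 (0.0758 to 0.389). The Notch2 cKO pair still differed 2.67-fold.

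Mcpt4, a beta-chymase of connective-tissue mast cells, was far lower than Cma1 in every library. The values were 0.0827 RPKM for WT Em2 and 0.398 for WT Em4, 0.195 for Notch2 cKO Em3, 0.526 for its partner Notch2 cKO Em4, and 0 for Notch1 cKO Em8. They rest on 2, 9, 4, 15 and 0 reads, and the 0 allows up to 0.119 RPKM (3 reads). Unlike the other proteases, its value in WT Em4 was above that in Notch2 cKO Em3, and their intervals overlapped widely. Cma1 (GRCm38 chromosome 14, 55941451 to 55944675, minus strand) and Mcpt4 (56059629 to 56062313, minus strand) lie in the same cluster of chymase and granzyme genes, 115 kb apart. Tpsb2 is on chromosome 17 (25366305 to 25369098, plus strand) and Cpa3 on chromosome 3 (20215620 to 20242181, minus strand). Reads from near-identical family members such as Tpsb2 and Tpsab1 may be split or lost in counting.

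The protease genes and Hdc lie on 4 chromosomes, and start regions are shown for those with a window because each held a GATA-type motif. Windows run from 250 bases before to 50 after the start in RefSeq (GRCm38.p6), 5′ to 3′ on the gene's strand, with matches to NGATAN (first base A or T, last base A or G) on either strand in capitals.
Cma1 (chr14:55944626-55944925, minus strand): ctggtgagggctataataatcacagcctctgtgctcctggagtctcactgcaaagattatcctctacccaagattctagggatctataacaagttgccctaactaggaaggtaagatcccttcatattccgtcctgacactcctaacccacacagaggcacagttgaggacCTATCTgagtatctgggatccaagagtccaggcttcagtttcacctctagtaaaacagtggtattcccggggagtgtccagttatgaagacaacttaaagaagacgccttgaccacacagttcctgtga
Mcpt4 (chr14:56062261-56062560, minus strand): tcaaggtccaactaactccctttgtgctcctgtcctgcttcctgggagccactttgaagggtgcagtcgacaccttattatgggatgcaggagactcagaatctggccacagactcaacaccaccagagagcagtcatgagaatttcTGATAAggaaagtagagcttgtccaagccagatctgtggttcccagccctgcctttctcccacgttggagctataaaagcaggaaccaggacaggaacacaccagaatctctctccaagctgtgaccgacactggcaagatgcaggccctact
Cpa3 (chr3:20242132-20242431, minus strand): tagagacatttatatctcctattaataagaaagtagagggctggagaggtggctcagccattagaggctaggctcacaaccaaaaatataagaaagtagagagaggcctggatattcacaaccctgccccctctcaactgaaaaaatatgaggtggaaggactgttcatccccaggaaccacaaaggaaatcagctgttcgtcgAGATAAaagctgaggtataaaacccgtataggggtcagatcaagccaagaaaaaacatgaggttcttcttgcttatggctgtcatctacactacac
Hdc (chr2:126618629-126618928, minus strand): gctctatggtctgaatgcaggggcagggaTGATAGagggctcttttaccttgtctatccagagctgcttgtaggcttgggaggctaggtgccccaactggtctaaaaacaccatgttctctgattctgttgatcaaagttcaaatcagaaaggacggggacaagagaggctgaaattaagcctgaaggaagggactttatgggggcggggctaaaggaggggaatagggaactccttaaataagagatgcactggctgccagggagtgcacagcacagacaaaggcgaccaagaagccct
GATA factors, GATA2 among them, are known regulators of mast cell genes. Of the 7 genes with a window, 6 held such a match (Kit did not), against 29.8% of 32851 windows of the same length over all genes. The match began 79 bases before the RefSeq start in Cma1, 103 in Mcpt4, 46 in Cpa3 and 221 in Hdc. In GENCODE the Hdc gene begins further upstream (126619299, minus strand), so its whole window lies within that gene. Ms4a2 held 3 matches, the nearest 11 bases before its start, and Fcer1a held 1. E-box matches (CANNTG) were present in 5 of the 7 genes, against 72.3% of all windows. A match is a run of letters and not a measured site. The Cma1 and Mcpt4 windows were 48.2% identical in a global alignment, and the other 20 pairs of member windows ran from 40.2% to 50%.

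Hdc encodes histidine decarboxylase, the enzyme that forms histamine. Its transcript was at 0.310 RPKM for WT Em2 and 0.883 for WT Em4, 1.20 for Notch2 cKO Em3, 2.42 for its partner Notch2 cKO Em4, and 0.0988 for Notch1 cKO Em8. Its order was that of Cma1 and Tpsb2, and its level relative to Cma1 stayed between 0.191 and 0.259 in all 5 libraries. The ratio of Tpsb2 to Cma1 ranged more widely, from 0.297 in WT Em2 to 0.989 in Notch1 cKO Em8, and that of Cpa3 to Cma1 from 0.291 in WT Em4 to 0.778 in WT Em2.

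**Figure D2:**
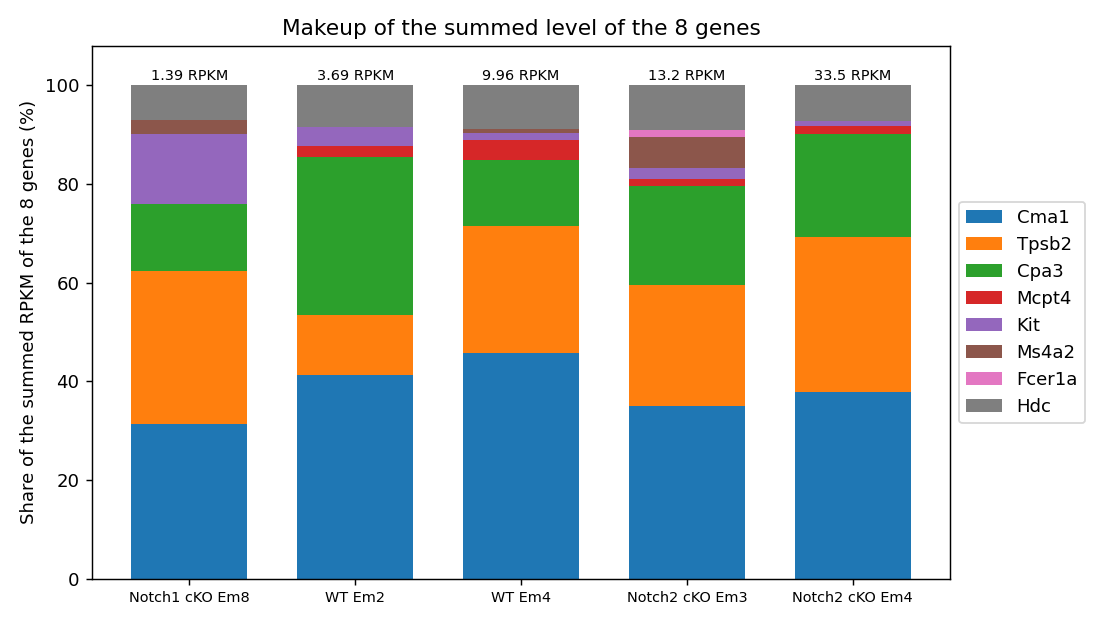
Share of each gene in the summed RPKM of the 8 genes (percent, vertical axis) for each library (horizontal axis), with that sum above each bar. The 4 proteases and Hdc make up most of every bar, Hdc takes 7.10% to 9.08%, and Kit takes 14.1% in Notch1 cKO Em8 against at most 3.85% in the other libraries.

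The receptor genes had other orders of libraries than Cma1, Tpsb2 and Cpa3. Kit, the receptor tyrosine kinase for stem cell factor, was at 0.142 RPKM for WT Em2 and 0.135 for WT Em4, 0.307 for Notch2 cKO Em3, 0.368 for its partner Notch2 cKO Em4, and 0.196 for Notch1 cKO Em8. Its highest and lowest libraries differed far less than those of Cma1, and relative to Cma1 it ran from 0.0290 in Notch2 cKO Em4 to 0.450 in Notch1 cKO Em8. Kit is also made by melanocytes and other cells: 6 melanocyte markers summed to between 0.728 and 2.37 RPKM and were highest in Notch2 cKO Em3. Their part in the Kit values was not tested. Kitl, the gene of its ligand, was between 0.383 and 0.934 RPKM and was highest in Notch1 cKO Em8.

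Ms4a2, the beta subunit of the high-affinity IgE receptor, was at 0 for WT Em2 and 0.0866 RPKM for WT Em4 (2 reads), 0.812 for Notch2 cKO Em3 (17 reads), 0 for its partner Notch2 cKO Em4, and 0.0388 for Notch1 cKO Em8 (1 read). The 0 in Notch2 cKO Em4 allows up to 0.103 RPKM, below the lower bound of the Notch2 cKO Em3 interval (0.473), although the proteases were highest in Notch2 cKO Em4. Fcer1a, the alpha subunit that binds IgE, was listed above 0 only in Notch2 cKO Em3, at 0.188 RPKM from 4 reads. In Notch2 cKO Em4 its 0 allows up to 0.101 RPKM, above the lower bound for Notch2 cKO Em3 (0.0512), so a difference between the Notch2 cKO libraries was not detectable at this depth. Fcer1g, the gamma chain shared with other Fc receptors, was present in every library, from 1.67 in Notch1 cKO Em8 to 4.74 RPKM in Notch2 cKO Em4.

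Notch2 cKO against WT compares sorted cells of fetuses with floxed Notch2 alleles with those of fetuses without them. Values of log2(RPKM + 1) were fitted with limma over the 11543 named genes whose mean reached 1 RPKM, with calls at a Benjamini-Hochberg adjusted p under 0.05. The filter kept 3 members, Cma1, Tpsb2 and Cpa3 (mean 2.46 RPKM), and left out 5, of which Hdc was nearest at a mean of 0.982 RPKM. Their differences, Notch2 cKO minus WT, were 1.23 (SE 0.34) for Cma1, 1.61 (SE 0.34) for Tpsb2 and 1.26 (SE 0.32) for Cpa3, where the median over all genes tested was 0.14. The SE given here and below rest mostly on other genes of like level (103.8 prior against 2 residual degrees of freedom). They do not measure the spread of these 3 genes between libraries. In the same order, the WT libraries differed 2.99-fold, 5.70-fold and 1.12-fold, and the Notch2 cKO libraries 2.75-fold, 3.24-fold and 2.67-fold. Because this comparison was among the values that chose the members, and the filter kept those that were high in it, these differences are a description. Among all genes tested 41 were called higher (0.355%) and 21 lower (0.182%; the counts were 41 and 42 after median-of-ratios scaling, which moved the median to −0.05).

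The size of these differences depended on single libraries. Without Notch2 cKO Em4 they were 0.59 for Cma1, 0.89 for Tpsb2 and 0.68 for Cpa3. Without WT Em2 they were 0.66, 0.96 and 1.21 in the same order, and without WT Em4 1.80, 2.26 and 1.30. Without Notch2 cKO Em3 they were 1.87, 2.33 and 1.83. The differences stayed above 0 under every alternative in which they could be computed, and ran from 0.59 to 1.87 for Cma1, from 0.89 to 2.47 for Tpsb2 and from 0.68 to 1.83 for Cpa3.

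**Figure D3:**
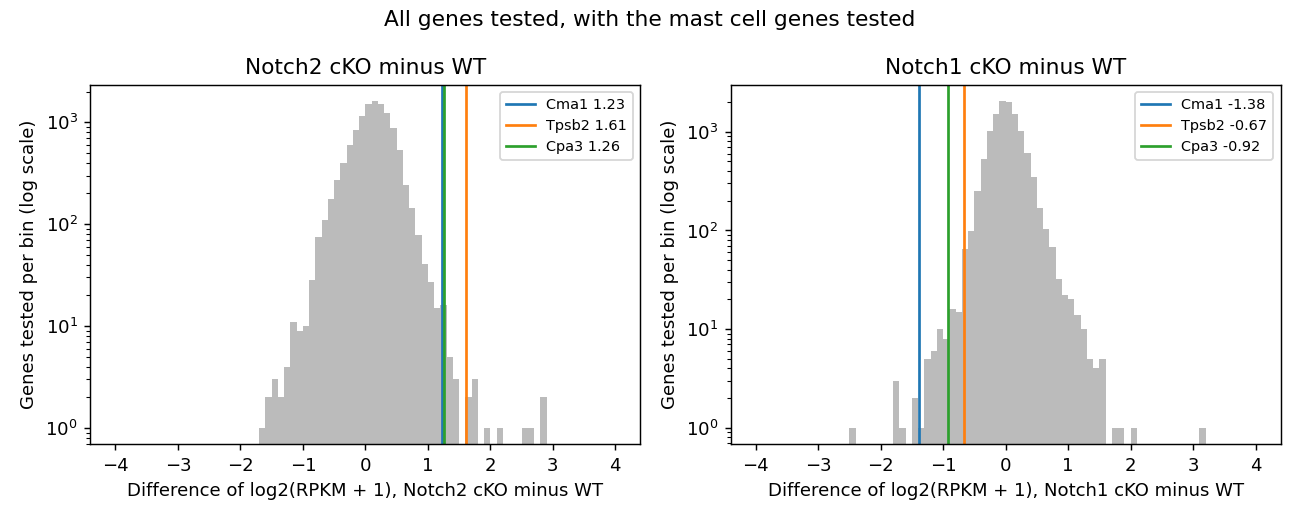
Distribution over the 11543 genes tested of the difference in log2(RPKM + 1) (horizontal axis; number of genes per bin on a log axis), for Notch2 cKO minus WT on the left and Notch1 cKO minus WT on the right. Vertical lines mark Cma1, Tpsb2 and Cpa3, at 1.23, 1.61 and 1.26 on the left and at −1.38, −0.67 and −0.92 on the right; both panels share the WT libraries.

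By level alone, both Notch2 cKO libraries stood above both WT libraries for 5 of the 8 genes (Cma1, Tpsb2, Cpa3, Kit and Hdc), a pattern held by 29.7% of the 23440 named genes above 0 in any library, by 28.3% of genes tested and by 31.2% of genes under a mean of 1 RPKM. After median-of-ratios scaling Cma1 no longer did. The members were chosen on values of this comparison, so the count is a description and no test against that background. None of the 8 had both Notch2 cKO libraries below both WT libraries (background 5.89%). The deposited column names carry digits that the labels do not explain; Notch2 cKO Em4 and WT Em4 share theirs, and so do Notch2 cKO Em3 and Notch1 cKO Em8. Within the first pair Notch2 cKO Em4 was higher 2.79-fold for Cma1, 4.08-fold for Tpsb2, 5.28-fold for Cpa3 and 2.74-fold for Hdc. Within the second, Notch2 cKO Em3 was higher 10.6-fold for Cma1, 7.49-fold for Tpsb2, 13.9-fold for Cpa3 and 12.1-fold for Hdc, each from single libraries.

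The comparison of Notch1 cKO with WT rests on a single knockout library and shares its controls with the comparison above. The spread used for it comes mostly from other genes of like level, and for the rest from the WT and Notch2 cKO libraries. On the log2(RPKM + 1) scale Cma1 differed by −1.38 (SE 0.42, limma adjusted p = 0.418), Tpsb2 differed by −0.67 (SE 0.42, adjusted p = 1) and Cpa3 by −0.92 (SE 0.39, adjusted p = 1). None of the 3 passed the test, and 2 (Cma1 and Cpa3) had an unadjusted p under 0.05, as did 1.85% of all genes tested. Of all genes tested 0.0433% were called higher and 0.026% lower. Over the alternatives the adjusted p of Cma1 ran from 0.0157 to 1, and it was called after median-of-ratios scaling (0.0157) and under no other alternative. Limma voom called none of the 3, with 2 at an unadjusted p under 0.05 (1.46% of all genes). The members were chosen on values that include these WT libraries. The filter also counts the Notch2 cKO libraries, without which Cpa3 would not reach a mean of 1 RPKM. The counts of members beside the shares of all genes are therefore a description. Without WT Em4 the difference was −0.81 for Cma1 and −0.02 for Tpsb2.

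Notch1 cKO Em8 was the lowest of the 5 libraries for 5 of the 8 genes (Cma1, Tpsb2, Cpa3, Mcpt4 and Hdc), where it was the lowest for 14.6% of named genes above 0 (21.4% of genes tested and 8.08% of those under 1 RPKM). The order includes the libraries on which the members were chosen, so this count is a description. Against the WT pair, the Cma1 level of Notch1 cKO Em8 was 3.49-fold below WT Em2 and 10.4-fold below WT Em4, and its Tpsb2 level 1.05-fold and 5.96-fold below. Between the knockouts, the fitted difference Notch2 cKO minus Notch1 cKO was 2.61 (SE 0.42) for Cma1, 2.28 (SE 0.42) for Tpsb2 and 2.18 (SE 0.39) for Cpa3. Over the alternatives these ran from 1.97 to 4.11, from 1.56 to 3.75 and from 1.61 to 4.45. This contrast uses the Notch2 cKO libraries on which the members were chosen, so the values are a description. Among all genes tested 0.277% were called higher and 0.208% lower.

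Other genes of the mast cell were taken from 4 lists with 34 genes, of which 5 reached a mean of 1 RPKM. None of these 5 was called by limma in any of the 3 comparisons, in which 0.537% (Notch2 cKO against WT), 0.0693% (Notch1 cKO against WT) and 0.485% (between the knockouts) of genes tested were. At an unadjusted p under 0.05 there was 1 in Notch2 cKO against WT (Srgn; 7.63% of all genes), 0 in Notch1 cKO against WT (1.85%) and 1 between the knockouts (8.66%). Limma voom called none, with 1, 0 and 0 at an unadjusted p under 0.05 (7.02%, 1.46% and 7.57% of all genes). Their median difference in Notch2 cKO against WT was 0.14, the same as the 0.14 over all genes tested, with 5 of 5 above 0 (2 of 5 after median-of-ratios scaling). Srgn, the core protein of granule proteoglycans in many blood cells, was at 0.699 RPKM for WT Em2 and 1.54 for WT Em4, 1.08 for Notch2 cKO Em3, 5.07 for its partner Notch2 cKO Em4, and 0.960 for Notch1 cKO Em8. It was thus high in 1 library of the 5, and it was called higher only without Notch2 cKO Em3. Slc18a2, a vesicular monoamine transporter, and Ndst2, an enzyme of heparin synthesis, ran from 1.74 to 3.36 and from 1.68 to 3.38 RPKM.

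The remaining protease genes of mast cells were near 0. Tpsab1, the tryptase gene next to Tpsb2, had 8 reads in Notch2 cKO Em3 (0.353 RPKM), 10 in Notch2 cKO Em4 (0.317 RPKM), 1 in WT Em2 and 0 in the remaining libraries. Tpsg1, Mcpt1 and Mcpt2, the last 2 known from mucosal mast cells, were at 0 in all 5 libraries. Cma2, Mcpt9 and Ctsg had at most 3 reads in any library. Among receptors, Mrgprb2, the receptor for basic secretagogues, had 8 and 11 reads in the Notch2 cKO libraries, 4 in WT Em4 and 0 in WT Em2 and Notch1 cKO Em8, and Csf2rb, the common beta chain of cytokine receptors, lay between 0.0860 and 0.476 RPKM. Of the regulators, Gata2 measured 0.0631 RPKM (WT Em2) and 0.162 (WT Em4), 0.431 and 0.353 across Notch2 cKO, and 0.169 for Notch1 cKO Em8. Both Notch2 cKO libraries were above both WT libraries for 14 of the 34 genes, with 3 of the 34 at 0 throughout, where 29.7% of named genes above 0 and 31.2% of those under 1 RPKM had that pattern. Lat2 and Lyn, signalling genes of several blood lineages, were highest in Notch2 cKO Em3, at 4.86 RPKM and 1.35 RPKM respectively.

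Like Ms4a2 and Fcer1a, 18 of the 34 other mast cell genes were highest in Notch2 cKO Em3, where 46.6% of all named genes above 0 were highest too (25.4% of genes tested and 67.2% of those under 1 RPKM). The cytokine gene Il4 had 11 reads there, 1 in Notch2 cKO Em4 and 0 in the other libraries, and the kinase gene Btk 11, 2 and 0. Notch2 cKO Em4 was the highest library for 6 of the 8 members and for 7 of the 34, against a background of 22.7% (33.3% of genes tested, 12.3% under 1 RPKM). For the 8 members, chosen on values that include this library, the count is a description. The part of the larger number of detected genes in Notch2 cKO Em3 in these values was not tested.

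**Figure D4:**
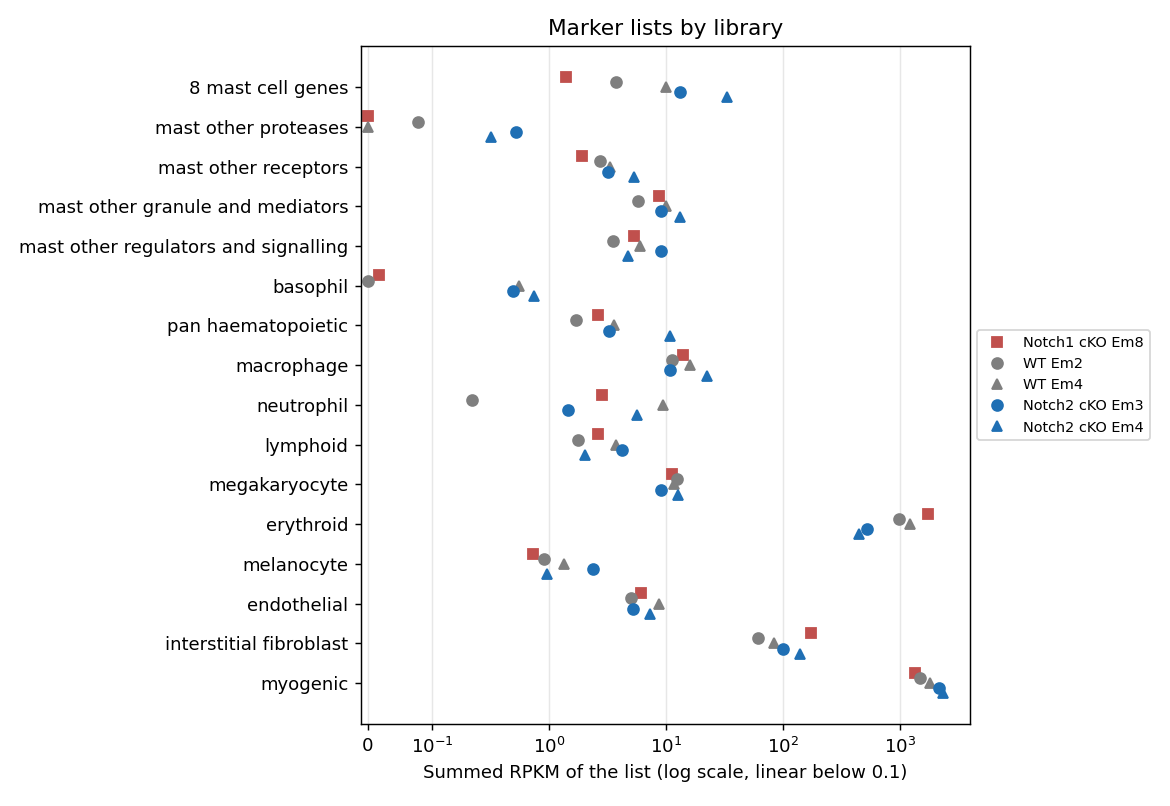
Summed RPKM (horizontal axis, log scale and linear below 0.1) of the 8 genes and of 15 other marker lists in the 5 libraries, marked by colour for genotype and by shape for library. The 8 genes run from 1.39 to 33.5 RPKM, and the pan-haematopoietic list (10.7 RPKM), the macrophage list (22.4 RPKM, of which Lyz2 is 11.4) and the myogenic list (2328 RPKM, of which Myog is 1737) are also highest in Notch2 cKO Em4. So are the lists of other mast cell receptors (5.30 RPKM), mast cell granule and mediator genes (13.1 RPKM), basophil genes (0.745 RPKM) and megakaryocyte genes (12.7 RPKM).

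Markers of other blood cells were measured beside the mast cell genes. Ptprc, which encodes the CD45 used in the sort, was at or below 0.145 RPKM in all libraries (17 reads at most) and at 0 in WT Em2. The 9 pan-haematopoietic genes summed to 1.69 and 3.61 RPKM in WT (Em2, Em4), 3.23 and 10.7 across Notch2 cKO (Em3, Em4) and 2.61 for Notch1 cKO Em8. Of these 9 genes, 5 were highest in Notch2 cKO Em4 and 4, Ptprc among them, in Notch2 cKO Em3. Their leading gene Tyrobp, an adaptor of myeloid cells, reached 4.88 RPKM in Notch2 cKO Em4. The 11 macrophage genes summed to between 10.8 and 22.4 RPKM with 5 of the 11 highest in Notch2 cKO Em4, where the lysozyme gene Lyz2 reached 11.4 RPKM, with 1.46 for Notch2 cKO Em3 and 4.10 for WT Em4; Cd68, the gene of highest mean, was lowest there at 5.13 RPKM. Without Lyz2 the list summed to 10.9 RPKM for Notch2 cKO Em4, below Notch1 cKO Em8 (12.3) and WT Em4 (11.98). The 9 neutrophil genes ran from 0.220 RPKM in WT Em2 to 9.47 in WT Em4, led by S100a8, with Ly6g at 0 in all libraries. The part of these cells in the mast cell values was not tested.

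The 3 basophil genes, among them Mcpt8, summed to at most 0.745 RPKM; Prss34, a protease of basophils and some mast cells, had 25 reads in Notch2 cKO Em4, 11 in WT Em4, 6 in Notch2 cKO Em3 and 0 in the other libraries. Lymphoid, megakaryocyte and endothelial lists summed to between 1.76 and 12.7 RPKM, with Cd79a, Pf4 and Tek as their leading genes, and Pmel led the melanocyte list. Erythroid genes, led by Hba-a2, had the opposite order of genotypes to the mast cell genes, though not of libraries within WT: their sum was highest in Notch1 cKO Em8 (1749 RPKM), lower in WT (979 and 1219) and lowest in Notch2 cKO (521 and 449). Interstitial fibroblast genes, led by Dcn, were also highest in Notch1 cKO Em8 (175 RPKM), with a range of 60.7 to 139.9 elsewhere.

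**Figure D5:**
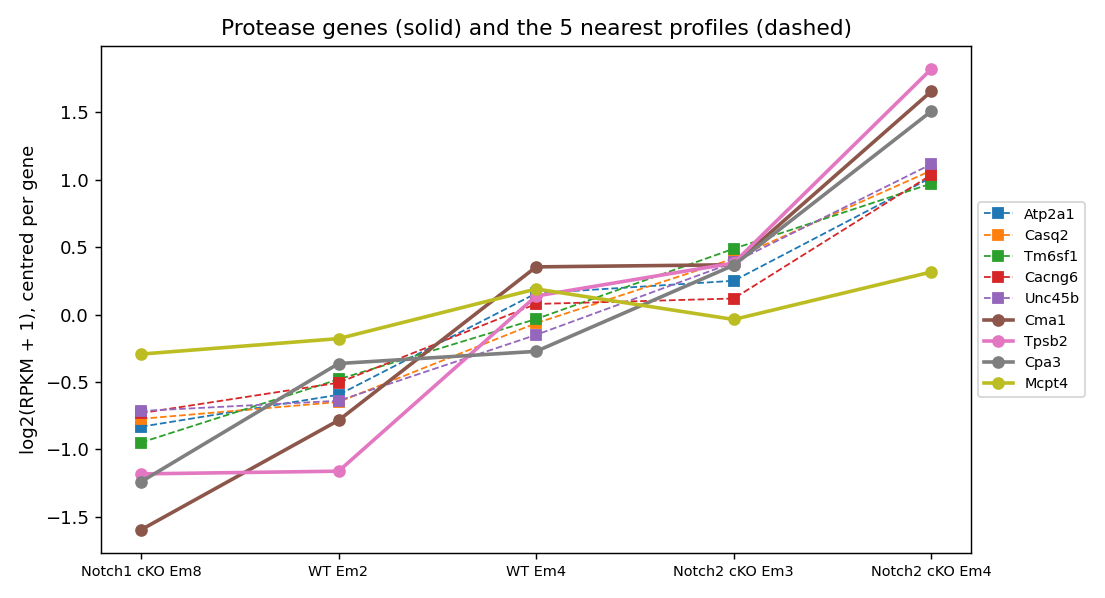
Level of the 4 protease genes (solid lines) and of the 5 non-member genes nearest to their mean profile (dashed lines) across the 5 libraries. Values are log2(RPKM + 1) minus the gene's mean over libraries. Cma1, Tpsb2 and Cpa3 and the nearest genes are lowest in Notch1 cKO Em8 and highest in Notch2 cKO Em4, and Mcpt4 is the flattest line.

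Across the 5 libraries, genes were ranked by their nearness to the mean profile of the proteases. The measure was the Euclidean distance from the mean centred log2(RPKM + 1) profile of Cma1, Tpsb2, Cpa3 and Mcpt4. The 5 nearest among 11540 other genes were named. They were Atp2a1, the calcium pump of fast muscle (distance 0.400), Casq2, a calcium-binding protein of the sarcoplasmic reticulum (0.456), Tm6sf1 (0.477), Cacng6, a calcium channel subunit gene (0.491), and Unc45b, a myosin chaperone (0.504). The median over all genes tested was 1.75, and the proteases themselves lay between 0.526 (Cpa3) and 1.39 (Mcpt4) from their own mean. All 5 named genes were thus nearer to that mean than any protease was. The mean includes Mcpt4, the flattest profile, so nearness to it is not likeness to Cma1, Tpsb2 or Cpa3. The level of Atp2a1 was 10.4 RPKM for WT Em2 and 18.2 for WT Em4, 19.4 for Notch2 cKO Em3, 33.8 for its partner Notch2 cKO Em4, and 8.65 for Notch1 cKO Em8. The order of libraries was that of Cma1, at a higher level and over a narrower range. With 5 libraries, likeness of this kind describes the libraries only.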

How the data were processed

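Libraries were prepared from RNA of sorted cells with the SMART-Seq v4 kit, per the labels' protocols. The authors deposited 1 table of RPKM values for 27179 rows and 5 libraries; 1306 rows carry no gene name (2.19% to 3.07% of a library's summed RPKM) and were left out. bcl2fastq 2.20.0 and mm10 are named in the submitters' processing notes; what aligned and counted the reads, and the gene models, is not stated in the sources used here. Columns were assigned to groups by name, since they carry no replicate number.

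The RPKM values come in steps, from which reads were recovered, with library totals rounded to whole numbers. The scale of the totals was searched for the largest share of whole gene lengths. With the totals found, 92.9% of 3638 short genes (under 1500 bases) had a whole length within 0.02 bases. At a fixed total 4% would by chance, a share that does not allow for the search. Recovered reads summed to 99.2% to 99.3% of the totals, and may be off by a common factor for genes with few reads. A 0 allows 3 reads. Intervals are exact Poisson (95%), for counting error only, since the reads carry no molecular identifiers.

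Differences were tested by limma 3.58.1 (lmFit, then eBayes with a trend; R 4.3.3) on log2(RPKM + 1), which understates changes of low genes, with 1 mean per group, all 5 libraries, genes whose mean reached 1 RPKM, two-sided p and Benjamini-Hochberg adjustment (2 residual and 103.8 prior degrees of freedom). With 2 libraries against 2, an exact permutation test gives p = 0.333 at the smallest. The script was tested on simulated reads with the same dispersion for all genes. That run does not show its error rates for genes that vary as much between libraries as Tpsb2. Alternatives were other pseudocounts (0.1 and 0.5), no filter, a filter at 5 RPKM, median-of-ratios scaling, limma voom on recovered reads, and leaving out each library.

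The members and lists were chosen with earlier results of these data known. Named are all members; in each list of other mast cell genes those called and the 3 of highest mean; in each list of another cell type the gene of highest mean and defining genes at 0; and the 5 nearest profiles. Other genes named from the lists (Ptprc, Cma2, Mcpt8, Il4, Btk, Gata2, Lyz2) were chosen after their values were seen. Positions are those of GENCODE (GRCm38, the build named mm10 by UCSC), looked up by symbol; start windows are from RefSeq (GRCm38.p6) and were found for 7 of 8 members.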

Additional observations from a re-analysis of the deposited data

How the results depend on the processing

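No paired analysis was possible because the deposited columns carry no replicate numbers. A fit with group and the digits in the column names would have 5 parameters for 5 libraries and leave 0 residual degrees of freedom, so it gives no test. The direction of the fitted difference of Cma1, Tpsb2 and Cpa3 held in the 3 comparisons under every alternative in which a value could be computed; the filter at 5 RPKM left none of them. The number of genes called moved far more. In Notch2 cKO against WT, 62 genes were called in the main analysis, 0 with no filter (1050 at an unadjusted p under 0.05), 33 with a filter at 5 RPKM, 1 with limma voom (810), and between 13 (without WT Em2) and 287 (without WT Em4) when a library was left out. In Notch1 cKO against WT, 8 were called, against 15 with a pseudocount of 0.1, 0 with no filter (301 unadjusted), 22 after median-of-ratios scaling, 3 with limma voom, and 1 to 5 in leave-one-out fits (1 without WT Em4). In Notch2 cKO against Notch1 cKO, 56 were called, against 0 with no filter (983 unadjusted), 92 after median-of-ratios scaling, 14 with limma voom, and 35 to 67 in leave-one-out fits (35 without Notch2 cKO Em4). The cause was not tested. Depth limits 5 of the 8 genes: Mcpt4, Ms4a2 and Fcer1a rest on 30, 20 and 4 reads over all libraries, Kit on 148 and Hdc on 297.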
